A study of Mus musculus with 6 samples.

Results

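Anti-Müllerian hormone (AMH) signalling was described at the RNA level in granulosa cells of mice with and without JMJD3, through 8 genes out of the 49315 in the count files. The genes were listed by name: the hormone gene Amh, its type II receptor gene Amhr2, the type I receptor genes Acvr1, Bmpr1a and Bmpr1b, and the genes of the SMAD proteins that these receptors phosphorylate, Smad1, Smad5 and Smad9. They were selected on the CPM values of these same WT and KO libraries in an earlier comparison, with no stated threshold. For that reason the differences between the groups in these 8 genes are given as a description and carry no p-value. Granulosa cells, the somatic cells around the oocyte, were isolated fresh from ovaries of C57BL/6J mice aged 8 to 9 weeks, in 3 libraries labelled WT (genotype wild type) and 3 labelled KO (genotype Jmjd3 knock out). The series describes the knockout as granulosa cell-specific. Jmjd3, also named Kdm6b, encodes a demethylase of the repressive H3K27 methyl mark.

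The sources used here name no Cre line, deleted exons, oestrous stage or number of animals behind a library. One Cre line in wide use for granulosa cells is a knock-in at the Amhr2 locus itself, and its carriers keep a single intact Amhr2 allele. Whether the KO mice carried it is not given here, and in counts over a whole gene the loss of transcript from a targeted allele cannot be told apart from lower expression of an intact gene. Kdm6b RNA, counted over the whole gene and given as CPM (read counts scaled to library size by the TMM method), ranged over 66.2 to 72.8 in the WT libraries and 64.7 to 112 in the KO libraries, so the genotype rests on the labels.

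AMH is a hormone of the TGF-beta family that granulosa cells of small growing follicles secrete. It restrains the recruitment of primordial follicles and lowers the response of growing follicles to follicle-stimulating hormone (FSH). The hormone binds AMHR2, a receptor kinase that serves AMH alone, and AMHR2 then engages a type I receptor shared with the bone morphogenetic proteins (BMPs), which phosphorylates SMAD1, SMAD5 or SMAD9. AMHR2 is also made in the Müllerian duct mesenchyme and its derivatives, so it is restricted in tissue, while the type I receptors and SMADs are found in many cell types.

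The sequences before the starts of Amhr2 and Acvr1 are shown because these 2 genes were the members whose libraries separated by genotype. Each runs from 250 bases before the start to 50 bases from it on (RefSeq, GRCm38.p6), at chr15:102445117-102445416 on the plus strand for Amhr2 and at chr2:58566779-58567078 on the minus strand for Acvr1. Capitals mark AAGGTCA, a site bound by steroidogenic factor 1 (SF-1, gene Nr5a1), and GGGCGG, the GC box bound by SP1, on either strand.
Amhr2 promoter: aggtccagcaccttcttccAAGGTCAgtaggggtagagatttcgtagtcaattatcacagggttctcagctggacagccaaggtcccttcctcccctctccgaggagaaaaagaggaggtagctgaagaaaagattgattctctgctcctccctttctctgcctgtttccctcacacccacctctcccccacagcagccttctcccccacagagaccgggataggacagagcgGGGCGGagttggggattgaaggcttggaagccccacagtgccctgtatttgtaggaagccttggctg
Acvr1 promoter: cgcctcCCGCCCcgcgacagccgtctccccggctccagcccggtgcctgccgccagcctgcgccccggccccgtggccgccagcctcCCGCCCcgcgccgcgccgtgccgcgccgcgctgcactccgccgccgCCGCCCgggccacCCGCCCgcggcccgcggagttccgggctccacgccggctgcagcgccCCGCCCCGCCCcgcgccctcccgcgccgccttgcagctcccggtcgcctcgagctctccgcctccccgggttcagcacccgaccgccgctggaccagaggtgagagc

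The Amhr2 window held 1 AAGGTCA, beginning 231 bases before the start, and 1 GGGCGG, beginning 17 bases before it. The Acvr1 window held no AAGGTCA and 6 copies of GGGCGG. Of all 32851 windows of this length, 4.72% held AAGGTCA and 35.7% held GGGCGG. The motifs AGATAA, read by GATA factors (11.2% of windows), and GCGGGGGCG, read by WT1 and EGR proteins (2.91%), were searched on both strands as well, and neither was present in these letters. The end of GCGGGGGCG can overlap the beginning of GGGCGG. The base composition also differed: the Amhr2 window was 55.3% G and C with 5 CpG sites, and the Acvr1 window 83.7% with 51, more CpG sites than in 99.3% of windows. Of the 7 members with a window in the table, Bmpr1b had low CpG counts like Amhr2 (5 and 6 in its 3 windows). Those windows lie inside the gene, between 141931371 and 141982514, and none covers its outer start near 142169425 on the minus strand. The windows of Bmpr1a, Smad1, Smad5 and Smad9 held between 31 and 48 CpG sites, against a median of 7 over all windows.

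Library totals ran from 42379018 to 49901493 counts, so the least abundant member, Smad9, still had between 430 and 584 counts per library. All 8 members passed the filter on low counts, which kept 18250 genes. Granulosa cell markers were abundant, with Inha at 6833 ± 383 CPM in WT, Fshr at 123 ± 8.5 CPM and Foxl2 at 112 ± 8.56 CPM (SD, n = 3). Of the 12 granulosa markers, 10 had a positive log2 fold change (KO minus WT), with a median of 0.23. Their summed level overlapped, at 18096 to 21325 CPM in WT and 20969 to 28391 CPM in KO. RNA of other cells was present as well, and no marker on any list was at 0 in a library. KO replicate 3 stood apart through ovulation genes: the epidermal growth factor-like ligand gene Areg reached 241 CPM there and at most 0.98 CPM in the others. KO replicate 1 had the highest summed endothelial markers (292 CPM against 141 to 204 CPM elsewhere) and luteal markers (11795 CPM against 5286 to 8251 CPM). Where leaving out KO replicate 1 or 3 moved a named gene's fold change by more than 1.5 times, the value without it is given, with 2 exceptions. These are Smad5 and Smad9, whose fold changes stayed between -0.18 and 0.07 with any library left out. No such value is given for genes chosen after their values were seen, among them Bmpr2, Furin, Id1 and Sp1, so their dependence on these libraries is not shown. In such bulk samples, fewer cells of a type and less RNA per cell cannot be told apart.

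**Figure D1:**
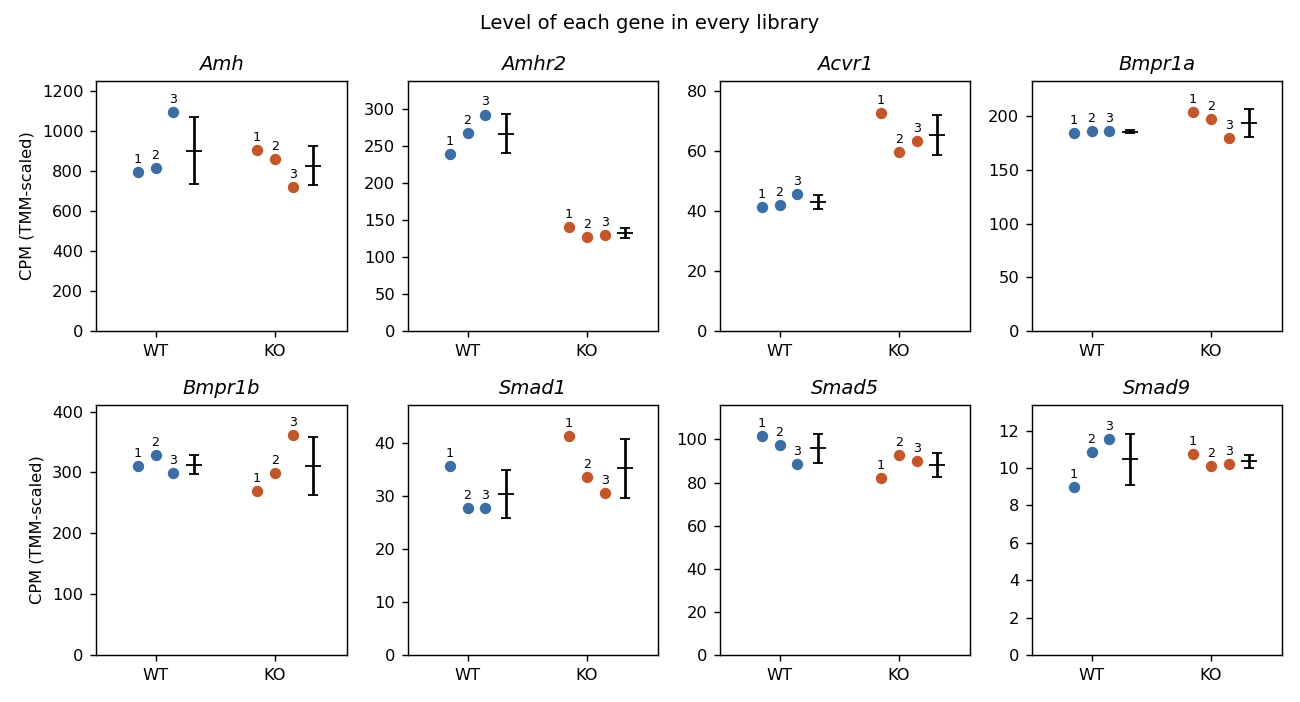
CPM of the 8 genes in each library, with points numbered by replicate and black bars showing mean ± SD (n = 3 per group). Amhr2 lies at 127 to 141 CPM in KO against 240 to 293 CPM in WT, and Acvr1 at 59.7 to 72.6 against 41.3 to 45.7 CPM, and in the other 6 genes the groups overlap.

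The hormone gene Amh (chromosome 10, 80805248 to 80807648, plus strand, GRCm38) overlapped between the groups. WT replicates 1 to 3 had 793, 816 and 1096 CPM, against 904, 858 and 719 CPM for KO replicates 1 to 3. The highest and the lowest library were WT replicate 3 and KO replicate 3, and the other 4 lay between 793 and 904 CPM. The means were 901 ± 169 and 827 ± 95.9 CPM (SD, n = 3), a fitted log2 fold change (KO minus WT) of -0.12 ± 0.14 (SE, 95% interval -0.45 to 0.20). The interval corresponds to a fold of 0.733 to 1.15, so a change of that size could be present. The log2 fold change became -0.20 when KO replicate 1 was left out, -0.03 when KO replicate 3 was and 0.04 when WT replicate 3 was.

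Amhr2 (chromosome 15, 102445367 to 102454630, plus strand, 11 exon blocks) was lower in each KO library than in any WT library. WT replicates 1 to 3 had 240, 268 and 293 CPM, against 141, 127 and 130 CPM for KO replicates 1 to 3. The lowest WT library was 99.1 CPM above the highest KO library, and the KO libraries varied less among themselves (coefficient of variation 5.28%) than the WT libraries (9.96%). The means were 267 ± 26.6 and 133 ± 7.02 CPM, a KO to WT ratio of 0.497. The fitted log2 fold change was -1.01 ± 0.09 (SE), and its 95% interval corresponds to a fold of 0.433 to 0.572. KO replicate 3, which stands apart in ovulation genes, was as low as the other KO libraries, and the log2 fold change without it was -0.99. Without any 1 of the 6 libraries it lay between -1.08 and -0.94.

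Amhr2 was also set against genes that define granulosa cells, within each library. The ratio of Amhr2 to the FSH receptor gene Fshr, in CPM, was 1.83, 2.16 and 2.57 in WT replicates 1 to 3 and 1.25, 1.02 and 0.896 in KO replicates 1 to 3. Against Foxl2, the transcription factor that maintains granulosa identity, the mean ratio was 2.41 ± 0.40 in WT and 1.08 ± 0.12 in KO (SD, n = 3). The groups did not overlap in either ratio. For its own ligand, the ratio of Amh to Amhr2 per kilobase of exon was 4.04 ± 0.42 in WT and 7.48 ± 0.76 in KO, with no overlap. The log2 fold changes of Fshr (0.06), Foxl2 (0.14) and Amh (-0.12) were small, so these ratios restate the Amhr2 difference. The part of the granulosa cell share in the Amhr2 value was not tested.

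Acvr1 (ALK2; chromosome 2, 58388644 to 58567157, minus strand), a type I receptor gene for AMH and BMPs, was higher in each KO library than in any WT library. WT replicates 1 to 3 had 41.3, 42.1 and 45.7 CPM, against 72.6, 59.7 and 63.4 CPM for the KO replicates. The gap between the groups was 14.0 CPM, set by WT replicate 3 and KO replicate 2. The group means were 43.0 ± 2.34 and 65.2 ± 6.67 CPM (SD, n = 3), and the fitted difference was 0.60 ± 0.09 on the log2 scale (SE, 95% interval 0.41 to 0.80). Without KO replicate 1, the highest, it was 0.51, and without KO replicate 3 it was 0.62.

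Endothelial cells also use ACVR1, and the 9 endothelial markers had a positive fold change in 9 of 9, with a median of 0.27. Their summed level was 155 to 194 CPM in WT and 292, 204 and 141 CPM in KO replicates 1 to 3. Their part in the Acvr1 value was not tested. The luteal markers, with 8 of 8 positive and a median of 0.61, summed to 5286 to 6041 CPM in WT and to 11795, 8251 and 5978 CPM in KO, and their part in the Acvr1 value was not tested. Oocyte markers were lower (10 of 10 negative, median -0.38), at 645 to 846 CPM in WT and 522 to 583 CPM in KO. Markers of ovarian surface and oviduct epithelium, the former a layer that can carry AMHR2, were negative in 9 of 10 (median -0.33), at 597 to 769 CPM in WT and 639, 587 and 452 CPM in KO, with overlap. Their part in the Amhr2 value was not tested. Stromal fibroblast markers, with 2 of 8 positive and a median of -0.28, ran from 990 to 1223 CPM in WT and from 662 to 1283 CPM in KO, so these groups overlap. Summed CPM did not overlap between the groups for markers of theca and interstitial cells and of red blood cells, nor for the oocyte markers. Theca and interstitial markers summed to 232 to 297 CPM in WT and 345 to 497 CPM in KO (4 of 7 positive, median 0.21). Cyp17a1 carried most of that difference (95.6 ± 34.9 CPM in WT and 231 ± 74.9 CPM in KO, SD, n = 3). The list's median log2 difference from the WT mean overlapped, at -0.07 to 0.04 in WT and 0.28, 0.01 and -0.16 in KO replicates 1 to 3. Red blood cell markers summed to 383 to 798 CPM in WT and 830 to 2260 CPM in KO (7 of 7 positive, median 1.25). Among them, the anion exchanger gene Slc4a1 rose from 0.23 ± 0.10 to 1.01 ± 0.15 CPM (SD, n = 3, adjusted p = 0.0406, edgeR). The part of these markers in the values of Amhr2 and Acvr1 was not tested.

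**Figure D2:**
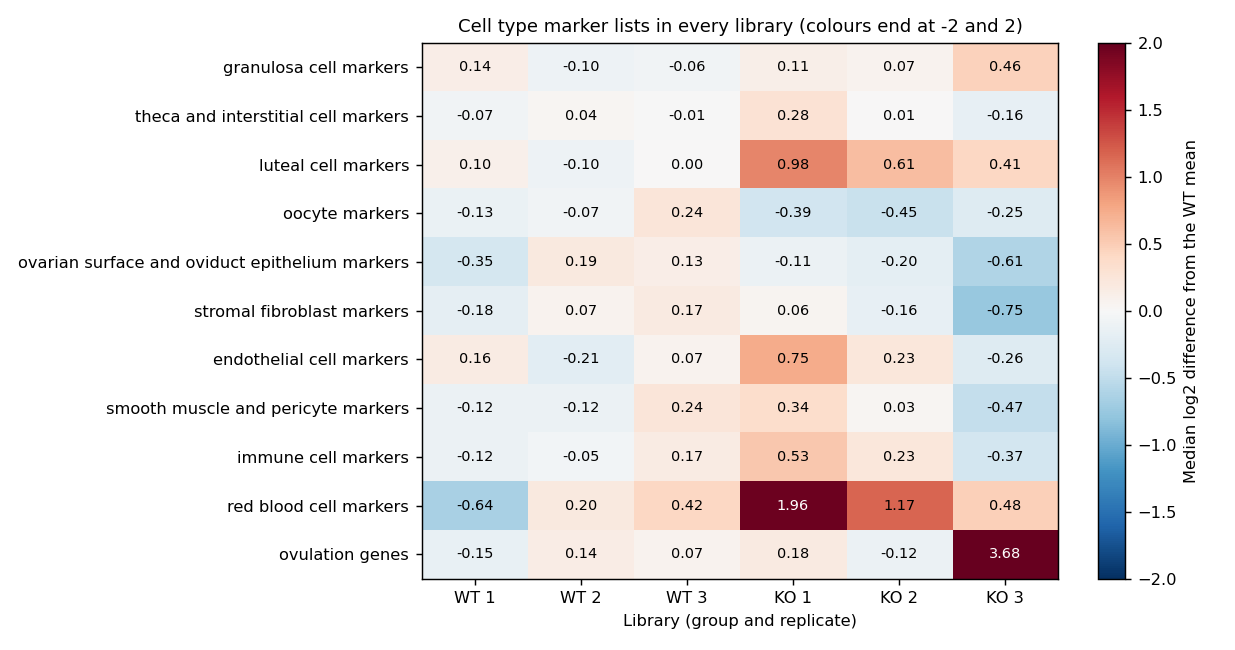
Median log2 difference from the WT mean over the genes of each marker list, one column per library. KO replicate 1 is high in luteal (0.98), endothelial (0.75) and red blood cell (1.96) markers, KO replicate 3 in ovulation genes (3.68), and oocyte markers are negative in each KO library.

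The other type I receptors did not separate by genotype. Bmpr1b (ALK6; chromosome 3, 141837136 to 142169425, minus strand), which has a narrow range of tissues and is needed for cumulus expansion in mice, had 310, 329 and 299 CPM across the WT libraries, against 269, 299 and 362 CPM across the KO libraries. Its spread in KO (coefficient of variation 15.3%) was wider than in WT (4.80%), with KO replicate 1 the lowest and KO replicate 3 the highest of the 6 libraries. The log2 fold change was -0.01 ± 0.11 (SE, 95% interval -0.26 to 0.24), -0.14 without KO replicate 3 and 0.07 without KO replicate 1. Bmpr1a (ALK3; chromosome 14, 34410734 to 34503341, minus strand) varied least among the WT libraries (coefficient of variation 0.83%, and 6.64% in KO), with 184, 187 and 187 CPM across the WT libraries, against 204, 197 and 179 CPM across the KO libraries. Its log2 fold change was 0.06 ± 0.07 (SE, 95% interval -0.10 to 0.22), 0.01 without KO replicate 1 and 0.11 without KO replicate 3. An antisense gene, Gm17110, overlaps 4.57% of the Bmpr1a exons, and it held 336 counts over all libraries against 54360 for Bmpr1a.

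Across the libraries Bmpr1a and Bmpr1b ran in opposite directions. KO replicate 1 had the highest Bmpr1a and the lowest Bmpr1b, and KO replicate 3 the reverse. Pearson's r of log2 CPM was -0.87 over the 6 libraries and -0.94 for the deviations from the group means (n = 6, a description). Amhr2 and Acvr1, which differ by genotype in opposite directions (r = -0.89 over the libraries), varied together within the groups (r = 0.79 for the deviations). This was not particular to that pair: r of the deviations was 0.95 for Amhr2 with Smad9, -0.94 for Amhr2 with Smad5 and -0.93 for Acvr1 with Smad5.

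The receptor SMADs overlapped between the groups in each case. Smad5 (chromosome 13, 56703010 to 56742377, plus strand) had 102, 97.5 and 88.4 CPM across the WT libraries, against 82.1, 92.8 and 89.9 CPM across the KO libraries (fitted difference -0.12 ± 0.08 SE on the log2 scale, 95% interval -0.29 to 0.05). Smad1 (chromosome 8, 79338395 to 79399518, minus strand) had 35.6, 27.7 and 27.8 CPM across the WT libraries, against 41.4, 33.7 and 30.6 CPM across the KO libraries (0.21 ± 0.14 SE, 95% interval -0.10 to 0.53). Replicate 1 was the highest library in both groups for Smad1, whose log2 fold change was 0.08 without KO replicate 1 and 0.35 without WT replicate 1. Smad9 (chromosome 3, 54755582 to 54801257, plus strand), which encodes the SMAD also named SMAD8, had 8.97, 10.9 and 11.6 CPM across the WT libraries, against 10.8, 10.1 and 10.2 CPM across the KO libraries (-0.01 ± 0.12 SE, 95% interval -0.28 to 0.25).

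Of the 8 members, 1 was called lower (Amhr2) and 1 higher (Acvr1) by edgeR's quasi-likelihood test across all genes at an adjusted p under 0.05. Over all 18250 genes tested, 0.0932% were called lower and 0.126% higher, 0.219% in all. Nothing is read from this count, since the members were chosen with this contrast known. The same 2 members were those whose groups did not overlap, as in 15.6% of all genes tested (all KO above all WT in 7.68%, all KO below all WT in 7.89%). Amhr2 was called in 12 of 13 alternative fits, the exception being the fit without WT replicate 2. Acvr1 was called in 6 of 13, where the 6 fits lacking a single library made 2 calls, without KO replicate 2 and without KO replicate 3. With the replicate number as a block, Amhr2 was called and Acvr1 was not.

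**Figure D3:**
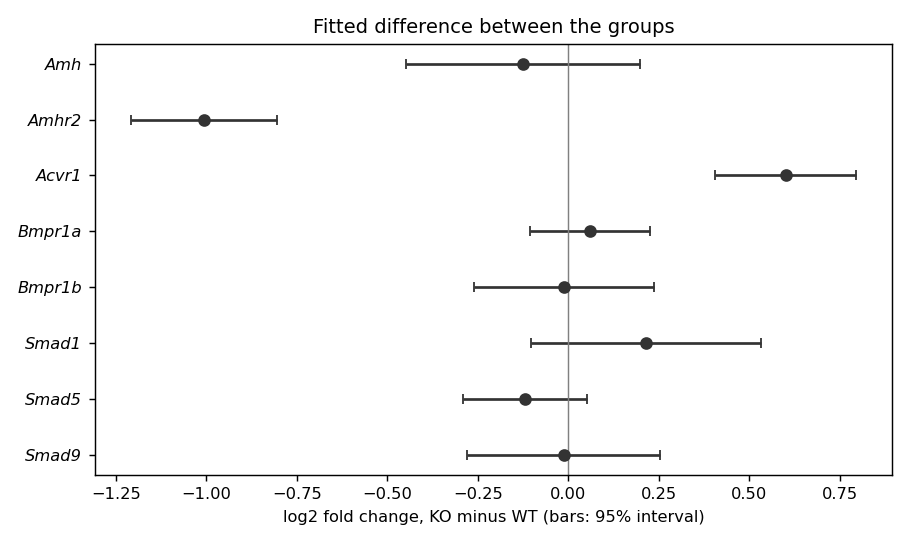
Fitted log2 fold change (KO minus WT) of each gene with its 95% interval from the fit across all genes. The intervals of Amhr2 (-1.21 to -0.81) and Acvr1 (0.41 to 0.80) lie away from 0, and those of the other 6 genes include it.

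Levels were compared between genes per kilobase of exon (RPKM, from the TMM-scaled CPM and the exon length in the count files). Amh was the highest member, at 519 ± 77.7 RPKM (SD over the 6 libraries), above 99.6% of the tested genes. Amhr2 followed at 133 ± 13.3 RPKM in WT and 66.4 ± 3.51 RPKM in KO (SD, n = 3). Bmpr1b stood at 52.3 ± 5.28 RPKM and Bmpr1a at 29.9 ± 1.46 RPKM over the 6 libraries. The lower members were Smad5 at 12.4 ± 0.93, Acvr1 at 11.2 ± 2.69, Smad1 at 5.24 ± 0.84 and Smad9 at 1.94 ± 0.16 RPKM. With this exon length, the AMH-specific receptor RNA was above each of its type I partners in each of the 6 libraries. The ratio of Amhr2 to Bmpr1b was only 1.07 in KO replicate 3, so their order there depends on the length used. The SMAD RNAs were below both BMPR1 receptors.

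This order is a description, set from the means of these same libraries, and carries no test. The higher gene of each neighbouring pair was higher in 6 of 6 libraries in 6 of the 7 pairs. The exception was Smad5 and Acvr1, with Smad5 higher in 4 of 6, so their order was not the same in all libraries. In WT, Smad5 was above Acvr1 in each library (13.7, 13.1 and 11.9 against 8.55, 8.72 and 9.46 RPKM), and in KO the order was reversed in replicates 1 and 3. With the length of the longest annotated transcript in place of the exon length, Acvr1 (16.4 RPKM) stood above Smad5 (14.0 RPKM).

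**Figure D4:**
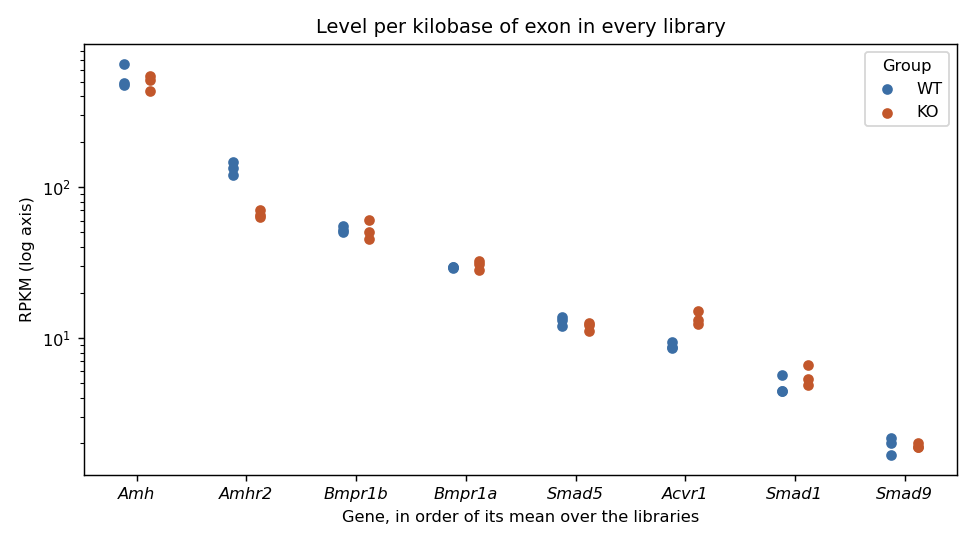
RPKM of the 8 genes in each library on a log axis, in order of the mean over the 6 libraries. The order runs from Amh (519 RPKM) to Smad9 (1.94 RPKM), and the points of Smad5 (11.1 to 13.7 RPKM) lie within the range of Acvr1.

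The make-up of the type I receptor RNA differed in its Acvr1 share. In WT, Bmpr1b made up 57.9% ± 1.4 of the summed RPKM of the 3 type I receptor genes, Bmpr1a 32.3% ± 0.76 and Acvr1 9.83% ± 0.68 (SD, n = 3). In KO the shares were 54.0% ± 5.31, 31.9% ± 3.75 and 14.1% ± 1.89. The Acvr1 share was 9.54, 9.34 and 10.6% in WT and 16.3, 13.2 and 12.8% in KO, without overlap, while those of the other receptors overlapped. With log2 fold changes of 0.06 for Bmpr1a and -0.01 for Bmpr1b, this share restates the Acvr1 difference and is no further result. The summed level of the 3 type I receptors was 90.6 ± 2.31 RPKM in WT and 96.1 ± 5.30 RPKM in KO. The ratio of Amhr2 to Acvr1 per kilobase was 14.0, 15.4 and 15.5 in WT and 4.67, 5.15 and 4.97 in KO. This ratio restates the opposite differences of the 2 genes and is no further result. For the receptor SMADs, Smad5 made up 65.5% ± 1.42 of the summed RPKM in WT and 61.2% ± 4.32 in KO, Smad1 24.5% ± 2.26 and 28.9% ± 4.14, and Smad9 9.97% ± 1.89 and 9.93% ± 0.35, with overlap in each.

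Around these receptors, 92 further genes of the pathway were taken in 8 lists, of which 91 were in the files and 81 were tested. Of the 81, 2 were lower and 0 were higher at an adjusted p under 0.05 (edgeR), against 0.219% of all genes in either direction. Their median log2 fold change was 0.06, and that of all genes tested was 0.00. At an unadjusted p under 0.05 there were 13 of the 81 (16.0%), and 9.16% of all genes. Without KO replicate 3, the library that stands apart, 6 passed, against 2.26% of all genes: Wt1, Nr0b1, Star, Bmp7, Cyp11a1 and Tgfbr2.

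The 2 genes that fell were transcription factors known to act on Amh or Amhr2, both in the list because of that role and with their earlier results known. Wt1, a zinc finger factor that activates the Amhr2 promoter, had 85.0, 96.5 and 97.6 CPM across the WT libraries, against 62.4, 65.2 and 64.2 CPM across the KO libraries (-0.54 ± 0.07 SE on the log2 scale, adjusted p = 0.0246, edgeR). Nr0b1 (DAX1), a co-repressor of SF-1, had 20.3, 25.8 and 22.2 CPM across the WT libraries, against 13.9, 13.7 and 12.3 CPM across the KO libraries (-0.77 ± 0.11 SE, adjusted p = 0.026, edgeR). For both genes each KO library lay below each WT library. Both calls ended with the replicate block (adjusted p = 0.0875 and 0.0812) and without WT replicate 2 or 3 or KO replicate 1 or 2, and that of Nr0b1 also with a filter at a mean of 1 CPM (0.0557). Over the 13 alternatives the adjusted p ran from 2.67e-06 to 0.218 for Wt1 and from 3.13e-07 to 0.222 for Nr0b1. The other 11 factors did not pass, with 7 positive among all 13 and a median of 0.05. The nearest of them was Sox9, at 3.01 ± 0.26 CPM (WT) and 2.01 ± 0.18 CPM (KO, -0.58 ± 0.16 SE, adjusted p = 0.312, edgeR). Nr5a1, the gene of SF-1, had means of 214 CPM (WT) and 256 CPM (KO, 0.26 ± 0.08 SE, adjusted p = 0.405, edgeR).

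None of the 13 other TGF-beta family receptors and co-receptors tested passed (12 positive, median 0.16). The nearest was Acvr1c (ALK7, a nodal and activin receptor), with means of 1.21 ± 0.01 (WT) and 2.41 ± 0.98 CPM (KO, 0.99 ± 0.28 SE, adjusted p = 0.326, edgeR). Next came the TGF-beta type I receptor gene Tgfbr1, at 250 and 307 CPM (0.30 ± 0.12 SE, adjusted p = 0.482). Without KO replicate 3 these differences were 0.64 for Acvr1c and 0.16 for Tgfbr1. Bmpr2, the main type II receptor for BMPs, stood at 820 ± 47.9 (WT) and 916 ± 198 CPM (KO). The interval of its log2 fold change ran from -0.17 to 0.48, given as a description because Bmpr2 was chosen after its values were seen. KO replicate 3 set the higher KO mean of Bmpr2, with 1141 CPM against 768 and 838 CPM for KO replicates 1 and 2.

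None of the 10 BMP and GDF ligands tested passed (4 positive, median -0.11). The oocyte factors Gdf9 (165 ± 29.4 and 121 ± 3.57 CPM, -0.45 ± 0.12 SE, adjusted p = 0.283, edgeR) and Bmp15 (97.7 ± 22.2 and 73.4 ± 6.08 CPM, -0.41 ± 0.16 SE, adjusted p = 0.51, and -0.24 without WT replicate 3) came nearest, beside the lower oocyte markers given above. Of the 10 extracellular antagonists tested, 0 passed (7 positive, median 0.12). Examples were Bmper (-0.37 ± 0.15 SE, adjusted p = 0.507, edgeR) and the activin and BMP binding protein gene Fst (0.36 ± 0.20 SE, adjusted p = 0.632). KO replicate 3 carried the Fst value, with 1375 CPM against 859 and 813 CPM for the other KO libraries, and without it the log2 fold change was 0.07. Of the 6 proprotein convertases tested, the enzyme family that cleaves the AMH precursor, 0 passed (median 0.06, with adjusted p of 0.659 for Pcsk2 and 0.754 for Pcsk7, edgeR). Furin averaged 150 ± 5.15 CPM (WT) and 156 ± 19.5 CPM (KO).

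Downstream, the direct target genes of SMAD1, SMAD5 and SMAD9 did not pass either (0 of 9 tested, 6 positive, median 0.04). Id1, the classical BMP target, had 25.2, 28.6 and 28.2 CPM across the WT libraries, against 28.5, 22.5 and 33.0 CPM across the KO libraries. Id3 had 203, 183 and 186 CPM across the WT libraries, against 174, 192 and 331 CPM across the KO libraries, so that KO replicate 3 alone set its positive fold change (0.28 ± 0.25 SE, adjusted p = 0.763, edgeR). Without that library it was -0.06, and without KO replicate 1 it was 0.45. Id4 was low (1.84 and 2.20 CPM, log2 fold change 0.26, adjusted p = 0.703, edgeR), and without KO replicate 1 the difference was 0.13. Of the 15 shared and inhibitory SMADs and SMAD regulators, 0 passed (9 positive, median 0.02). Lemd3 (MAN1), a nuclear membrane protein that binds receptor SMADs and dampens their signal, came nearest at 41.1 ± 0.31 and 48.4 ± 2.44 CPM (0.24 ± 0.07 SE, adjusted p = 0.328, edgeR). It was followed by the SMAD co-repressor gene Skil (0.36 ± 0.19 SE, adjusted p = 0.632), which was 0.11 without KO replicate 3.

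Genes of the FSH response that AMH is known to restrain were positive in 7 of 8 with a median of 0.50, and 0 passed. By library, the list's median log2 difference from the WT mean was 0.157, -0.122 and -0.04 in WT replicates 1 to 3. In KO replicates 1 to 3 it was 0.315, 0.164 and 0.455. KO replicate 3 was far above KO replicates 1 and 2 in Cyp19a1 (1113 against 319 and 234 CPM) and Inhba (2202 against 1081 and 1123 CPM). Star, which moves cholesterol into mitochondria, had 387, 340 and 392 CPM across the WT libraries, against 1165, 760 and 617 CPM across the KO libraries (1.18 ± 0.23 SE, adjusted p = 0.212, edgeR). Leaving out KO replicate 1 (adjusted p = 0.0334) or KO replicate 3 (0.0106) brought it past the threshold, as did testing by DESeq2 (1.15e-06) and by limma-voom (0.0152). Over the 13 alternatives its highest adjusted p was 0.662. Lhcgr, which encodes the receptor for luteinizing hormone, averaged 351 ± 40.2 CPM (WT) and 541 ± 173 CPM (KO, 0.63 ± 0.23 SE, adjusted p = 0.486, edgeR). Its log2 fold change was 0.34 when KO replicate 1, with 731 CPM, was left out. The list shares Star, Lhcgr and Cyp11a1 with the luteal markers, which summed highest in KO replicate 1.

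The genes beside the members were examined for position. Of the 18 genes tested within 250 kb of Amhr2, 0 were called, with a median log2 fold change of -0.02. The nearest gene by distance, the non-coding Gm26518 (102455526 to 102483722, minus strand), begins 896 bases beyond the end of Amhr2 along the chromosome. Its means were 0.38 ± 0.06 (WT) and 0.82 ± 0.36 CPM (KO, 1.11 ± 0.35 SE, adjusted p = 0.385, edgeR), a sign opposite to that of Amhr2 at a low level, and 0.72 without KO replicate 3. Mfsd5 (0.13 ± 0.08 SE, adjusted p = 0.65, edgeR) and the SP1 gene itself, Sp1 (-0.06 ± 0.06 SE), which lies 8963 bases upstream of Amhr2, stood near 0. No gene's exons overlap those of Amhr2 in the count files.

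Of the 28 genes tested within 250 kb of Amh, 0 were called (23 positive, median 0.08). They include Mknk2 (0.23 ± 0.11 SE, adjusted p = 0.586, edgeR, and 0.07 without KO replicate 3), Ap3d1 (0.12 ± 0.06 SE, adjusted p = 0.597) and Sf3a2, which ends 324 bases before the start of Amh and stood at 83.0 and 84.0 CPM. Of the 3 genes tested within 250 kb of Acvr1, 0 were called and 3 had a positive fold change. Upp2, on the other strand, begins 141 bases beyond the outer end of Acvr1 at 58567157. The start used for the Acvr1 promoter window lies further inside the gene. Upp2 stood at 3.03 ± 0.42 and 3.66 ± 0.33 CPM (0.27 ± 0.16 SE, adjusted p = 0.642, edgeR). The others were Acvr1c, described above, and Cytip (0.16 ± 0.23 SE, adjusted p = 0.861, edgeR).

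**Figure D5:**
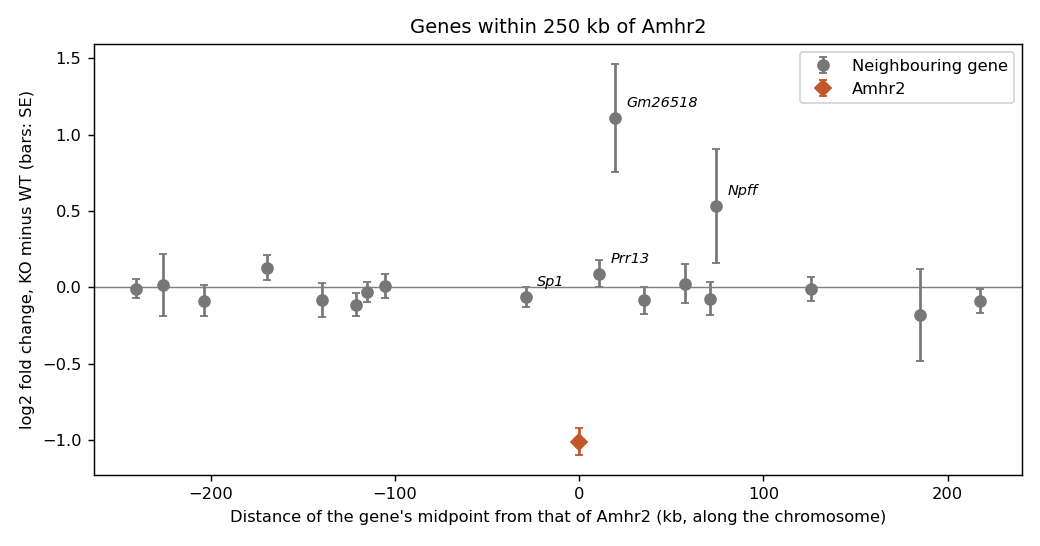
Log2 fold change (KO minus WT, bars SE) of the 18 tested genes within 250 kb of Amhr2 against distance along the chromosome. Amhr2 stands at -1.01, the neighbours between -0.18 and 1.11, with Gm26518 the highest.

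The genes whose pattern over the 6 libraries was most like that of Amhr2, among 11191 genes averaging 5 CPM or more, were Plekhb1, Lnx1, Mylk3, mt-Nd3 and Wt1. Pearson's r of log2 CPM was between 0.984 and 0.996, as a description over 6 libraries that fall into 2 groups. Within the groups, the deviations from the group means gave r of 0.90 for Plekhb1, 0.81 for the ubiquitin ligase gene Lnx1, 0.91 for Mylk3 and 0.67 for Wt1, but 0.31 for mt-Nd3. The mitochondrial gene mt-Nd3 had 7.59, 10.9 and 10.6 CPM across the WT libraries, against 0.256, 0.377 and 0.291 CPM across the KO libraries, and its counts are uncertain where nuclear copies of mitochondrial sequence share reads with it. For Acvr1 the nearest were the phosphodiesterase gene Pde8b, Tmem221, Kdelr2, the lymphatic receptor gene Flt4 and Atp13a2 (r 0.992 to 0.996, and 0.92 to 0.97 for the deviations). For Amh the nearest was the matrix metalloproteinase gene Mmp11 (r = 0.990), with 273, 279 and 322 CPM across the WT libraries, against 289, 282 and 253 CPM across the KO libraries. Dhodh, Efna1, Tmem8 and Rnf122 followed (r 0.947 to 0.951). These likenesses to Amh rest on WT replicate 3, since without it 0 of the 5 remained among the 50 genes most like Amh.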

How the data were processed

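The authors deposited whole-number counts per gene, not normalized, from paired reads of 150 bases. Per the labels' protocols, total RNA (500 ng) went into NEBNext Ultra libraries. The submitters' processing notes name GRCm38 and, in no stated order, featureCounts (Subread 1.5.2), STAR 2.5.2b and Trimmomatic 0.36. Strand setting and treatment of multiply mapped reads: not given in the sources used here. The exon length per gene was deposited beside the counts.

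Gene IDs were matched to GENCODE M21 symbols (49056 of 49315). Genes passing filterByExpr were tested with edgeR 4.0.16 (R 4.3.3): TMM scaling, robust quasi-likelihood test, genotype as the only term, Benjamini-Hochberg adjustment over 18250 genes, threshold 0.05. A prior count of 2 entered log2 CPM, and intervals are at 95% confidence. Alternatives used limma 3.58.1, DESeq2 1.42.0 and the settings named in the closing section. The fit was tested on simulated data. Labels do not state separate animals, so p-values reflect only library-to-library spread, possibly technical.

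The members and lists were chosen with earlier results of these data known. Named genes were the members, each pathway list's and neighbourhood's called genes and 2 smallest p, Kdm6b, and the 5 nearest patterns (there leaving out predicted genes and pseudogenes). Nr5a1, Sox9, Bmpr2, Tgfbr2, Bmp7, Cyp11a1, Furin, Id1, Sp1, Sf3a2, Cytip, Slc4a1, Cyp17a1, the granulosa markers and Areg were chosen after their values were seen. List genes with low counts or no matched symbol were not tested. Promoter windows are RefSeq's.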

Additional observations from a re-analysis of the deposited data

How the results depend on the processing

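The fitted log2 fold changes of the 8 members moved by less than the spread between replicates under the 13 alternatives. Nothing is read from that bound, since leaving out 1 of the 3 libraries of a group could hardly exceed it. Amhr2 ran from -1.08 to -0.94, Acvr1 from 0.51 to 0.66 and Amh from -0.21 to 0.04. Counts of calls moved more. All genes called numbered 40. With no filter on low counts there were 199, with a filter at a mean of 1 CPM 21, by DESeq2 221, by limma-voom 72 and with the replicate block 15. Leaving out a library gave from 8 (without WT replicate 2) to 421 (without KO replicate 3). The members called numbered 2. With upper quartile scaling, the filter at a mean of 1 CPM and the replicate block the number was 1, and leaving out a library gave 0 to 2. The further pathway genes called numbered 2. There were 4 with no filter, 1 with the filter at a mean of 1 CPM, 0 with the replicate block and 0 to 6 when a library was left out. No neighbour was called by edgeR, DESeq2 or limma-voom, and with no filter 1 was (Acvr1c). A window of 500 kb gave 0. Leaving out a library gave Id3 log2 fold changes from -0.062 (without KO replicate 3, reversed) to 0.45 (without KO replicate 1). With the longest transcript as length the Smad5 share was 59.3% in WT and 54.4% in KO, and the order of levels kept 6 of its 7 neighbouring pairs. The cause of these differences was not tested.

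Deviations from the group means of same-numbered libraries correlated at -0.04, 0.10 and -0.11 (replicates 1 to 3, 14380 genes), and only the libraries numbered 2 correlated best with their own number. These values give no sign of pairing by replicate number, but cannot show whether the libraries were collected or prepared in pairs. Depth was least for Smad9, with 430 counts in 1 library.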
